A study of Rattus norvegicus with 6 samples.

Results

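The energy and oxygen buffers of the cardiomyocyte were followed through 8 genes: the creatine kinases Ckm, Ckb, Ckmt2 and Ckmt1, the creatine transporter Slc6a8, the adenylate kinases Ak1 and Ak3, and myoglobin, Mb. They were chosen by symbol, with earlier results of these data known, from a table of 17487 gene symbols, and all 8 symbols were in it. The table held read counts for heart tissue of 6 adult male Wistar rats, an outbred strain, with 1 library per animal. In the doxorubicin group 3 rats had been given doxorubicin hydrochloride, an anthracycline used in chemotherapy, at 3.75 mg/kg by tail vein every week for 4 weeks. In the control group 3 rats had been given the vehicle, 0.9% sodium chloride, on that schedule. The part of the heart and the interval since the last injection were not stated, and the animals carried no stated genetic change.

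Creatine kinase moves a phosphate group between ATP and creatine. In heart muscle the mitochondrial form charges creatine where ATP is made, and the cytosolic forms recharge ATP beside myosin and the calcium pumps. Adenylate kinase makes ATP and AMP from ADP, which both buffers ATP and sets the AMP signal. Myoglobin is the heme protein that stores oxygen in heart and oxidative skeletal muscle and speeds its movement towards mitochondria. Creatine kinase activity and phosphocreatine content are known to decline in many forms of heart failure, and the brain-type subunit is known as the form of the developing heart.

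Levels of 4 of the genes, Ckm, Ckb, Ckmt2 and Mb, had fitted values in doxorubicin hearts between 53.4% and 67.4% of control, while Ak1 and Ak3 had fitted values of 80.4% and 94.0%. No difference passed the Benjamini-Hochberg adjusted threshold of 0.05 in edgeR's quasi-likelihood test, which called 0 of the 6 members with enough counts to test. Over all 9205 symbols tested, 0.0543% were called. At an unadjusted p under 0.05 edgeR gave 4 of the 6 (Ckm, Ckb, Ckmt2 and Mb), all on the lower side. Over all symbols tested 8.10% had such a p, and 4.11% had it on the lower side. These counts do not test the members as a set, since the members were chosen with earlier results of these data known. The 4 genes also varied together, with Pearson's r of log2 CPM from 0.75 to 0.98 between pairs, so they are not 4 separate results. DESeq2, run without the low-count filter used for edgeR, called 1 of the 6, Ckb. But it called more symbols in all, 74 of 10265 with an adjusted p (0.721%). With that filter, limma voom called 0 of the 6 and 0 of all symbols, with 740 symbols at an unadjusted p under 0.05. For 3 of the 6 (Ckb, Ckmt2 and Mb) every doxorubicin value was under every control value, which held for 7.06% of all symbols tested. The log2 fold change was below 0 for 6 of the 6 members tested, as it was for 47.9% of all symbols, and its median was -0.58 over the 6 members and 0.02 over all symbols tested. Ckmt1 and Slc6a8 had too few counts to test.

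The libraries held from 2219685 to 3508282 counts, and values are CPM, counts relative to library totals scaled by trimmed mean of M-values (TMM). On that scale 3 counts, the floor used for detection, came to between 0.852 and 1.33 CPM. The 6 tested members had at least 344 counts in each library. Control heart 1 stood apart in its blood transcripts: hemoglobin genes took 0.658% of its counts, against 0.0678% to 0.280% in the other libraries. It also stood apart in the atrial light chain gene Myl7, at 164 CPM there and at 2.06 to 6.42 CPM in the other hearts. Not all atrial markers did so: Sln had 60 counts there and 59 in control heart 3, and Nppa was highest in doxorubicin heart 1. Each tested member is therefore also given without control heart 1. Doxorubicin heart 1 had the lowest hemoglobin share, 0.0678%. Without that heart the log2 fold changes were -0.58 for Ckm, -0.81 for Ckb, -0.50 for Ckmt2 and -0.51 for Mb. Those of Ak1 and Ak3 were then -0.17 and -0.11, and the unadjusted p of Ckm in edgeR was 0.0505. The table gave no transcript lengths, so levels of different genes were not compared as amounts of RNA. Shares, ratios and places by counts that set genes beside each other are of reads only.

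The sequence before the transcription start is shown for the 4 genes whose values lay lowest against control. Pearson's r of log2 CPM over the 6 hearts was 0.75 to 0.98 between pairs of them, which follows in part from that choice, and Ak1 had r from 0.54 to 0.76 with the same 4. The 250 bases are from RefSeq on the rat build GRCr8, in 5′ to 3′ order along the gene. Capitals mark 2 motifs: the E-box CANNTG, bound by basic helix-loop-helix factors, and the letters TATAAA of a TATA box. Ckm lies on the plus strand (chr1:88189211-88189460), and Ckmt2 (chr2:24845512-24845761), Ckb (chr6:136553465-136553714) and Mb (chr7:110647743-110647992) lie on the minus strand.
Ckm: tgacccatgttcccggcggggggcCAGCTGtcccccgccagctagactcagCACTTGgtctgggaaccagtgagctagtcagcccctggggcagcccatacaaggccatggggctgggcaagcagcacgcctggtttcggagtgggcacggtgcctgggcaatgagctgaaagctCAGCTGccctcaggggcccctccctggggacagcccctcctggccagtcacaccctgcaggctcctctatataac
Ckmt2: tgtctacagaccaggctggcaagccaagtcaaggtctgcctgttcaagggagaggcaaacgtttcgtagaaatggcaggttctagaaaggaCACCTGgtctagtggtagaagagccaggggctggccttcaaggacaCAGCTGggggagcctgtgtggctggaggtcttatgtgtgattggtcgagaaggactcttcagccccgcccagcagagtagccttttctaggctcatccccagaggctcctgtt
Mb: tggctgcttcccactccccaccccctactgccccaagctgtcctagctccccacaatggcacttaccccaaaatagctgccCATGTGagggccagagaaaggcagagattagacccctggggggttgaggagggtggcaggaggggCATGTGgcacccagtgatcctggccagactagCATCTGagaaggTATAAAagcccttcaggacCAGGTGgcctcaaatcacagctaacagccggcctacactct
Ckb: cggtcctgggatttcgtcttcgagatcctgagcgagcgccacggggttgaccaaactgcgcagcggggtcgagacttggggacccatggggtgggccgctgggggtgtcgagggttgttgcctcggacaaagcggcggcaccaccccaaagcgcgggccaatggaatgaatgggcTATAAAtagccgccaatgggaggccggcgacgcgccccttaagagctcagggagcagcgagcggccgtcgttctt

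Searched on both strands, the window held 3 E-boxes in Ckm, 2 in Ckmt2, 4 in Mb and 0 in Ckb. An E-box was present in 65.2% of 27457 promoter windows of that length, so its presence in 3 of these 4 is near the common share. TATAAA stood from 60 to 55 bases before the start in Mb and from 75 to 70 in Ckb, and was present in 13.1% of windows. In Ckb that match lay inside a match to the MEF2 consensus, the site of a muscle transcription factor family, which stood from 76 to 67 bases before the start. A MEF2 match was present in 3.07% of windows and in 0 of the other 3 sequences shown. The letters CATTCC of the MCAT element, known from muscle genes, stood from 88 to 83 bases before the Ckb start and were present in 11.8% of windows. AGGTCA, a nuclear receptor half-site, and the CArG box of serum response factor were in none of the 4 windows, against 13.7% and 1.5% of all windows. These letter matches describe the sequence and are not measured binding sites. Upstream sequences for Ckmt1, Slc6a8 and Ak3 also matched by symbol and are not shown, so 7 of the 8 genes matched.

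Ckm encodes the muscle-type cytosolic creatine kinase, bound in part at the M-band of the sarcomere. It stood at 10494, 5822 and 6893 CPM in control hearts 1, 2 and 3 and at 4181, 5977 and 4337 CPM in doxorubicin hearts 1, 2 and 3. Control heart 1 was the highest, and doxorubicin heart 2 lay just above control heart 2, so the groups overlapped. The means were 7737 ± 2448 and 4832 ± 995 CPM (SD, n = 3). The fitted log2 fold change was -0.68 (SE 0.24), a level 62.5% of control with a 95% interval from 44.0% to 88.7%, and edgeR's adjusted p was 0.424. Without control heart 1 the log2 fold change was -0.39 (SE 0.17), and the groups still shared a range. Ckm was among the 18 symbols with most counts in every library, in place 9 in control heart 1 and place 18 in doxorubicin heart 1.

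Ckb encodes the brain-type cytosolic subunit, which can pair with the muscle-type subunit. It stood at 673, 783 and 555 CPM in control hearts 1, 2 and 3 and at 312, 469 and 293 CPM in doxorubicin hearts 1, 2 and 3. All doxorubicin values lay below all control values, and the nearest pair was control heart 3 and doxorubicin heart 2. The means were 670 ± 114 and 358 ± 96.5 CPM (SD, n = 3), with 1762 to 1955 reads behind each control value and 971 to 1502 behind each doxorubicin value. The fitted log2 fold change was -0.91 (SE 0.22), a level 53.4% of control with a 95% interval from 38.6% to 73.8%. Among the 6 members this was the lowest fold change, and without control heart 1 it was -0.90 (SE 0.22). The adjusted p was 0.158 in edgeR, so the difference did not pass the threshold. It passed in 2 of 19 alternatives, with an adjusted p of 0.0258 in edgeR with no low-count filter and 0.0122 in DESeq2. Both fits were run without that filter, and they called 0.467% and 0.721% of all symbols. The adjusted p ranged from 0.0122 to 0.506 over the 19.

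The balance of the cytosolic forms was taken as the Ckb share of Ckb and Ckm reads, which is a share of reads and not of protein or molecules. Control hearts 1, 2 and 3 had shares of 6.02%, 11.9% and 7.45%, with Wilson 95% intervals from 5.76 to 6.30, from 11.3 to 12.4 and from 7.14 to 7.78. Doxorubicin hearts 1, 2 and 3 had 6.94%, 7.27% and 6.33%, with intervals from 6.53 to 7.37, from 6.92 to 7.63 and from 5.96 to 6.72. The 3 doxorubicin hearts lay within 1 narrow range, inside the range set by the control hearts. The group means were 8.44% ± 3.04 and 6.85% ± 0.478 (SD, n = 3), and the 2-sided exact permutation p was 0.6, where 0.1 is the smallest that 3 against 3 can give. Without control heart 2 the sign of the difference changed, from -1.60 to 0.106 percentage points. A shift of reads towards the brain-type form was not detected with these 6 hearts. The log2 ratio of Ckb to Ckm differed by -0.27 between the groups (exact permutation p = 0.6, adjusted 0.8 over 4 ratios).

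Ckmt2 encodes the sarcomeric mitochondrial creatine kinase, which sits between the mitochondrial membranes and takes ATP from the adenine nucleotide carrier. It stood at 6962, 6049 and 5663 CPM in control hearts 1, 2 and 3 and at 3811, 4570 and 4205 CPM in doxorubicin hearts 1, 2 and 3. The groups did not overlap, with a gap between 4570 and 5663 CPM. The means were 6225 ± 667 and 4195 ± 379 CPM (SD, n = 3). The fit gave a log2 fold change of -0.57 (SE 0.18), a level 67.4% of control with a 95% interval from 51.5% to 88.1%, and edgeR's adjusted p was 0.366. Without control heart 1 the log2 fold change was -0.48 (SE 0.14).

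Ckmt1 encodes the ubiquitous mitochondrial form, known mainly from brain, kidney and other non-sarcomeric tissue. It had 4 counts in control heart 1, 1 count each in doxorubicin hearts 2 and 3, and 0 in the other 3 libraries. All but the value of control heart 1 were under the floor of 3 counts, and no difference was detectable at this depth. Both mitochondrial genes together took 38.4%, 47.8% and 43.2% of creatine kinase reads in control hearts 1, 2 and 3 and 45.9%, 41.5% and 47.6% in doxorubicin hearts 1, 2 and 3. The groups overlapped, with means of 43.1% ± 4.70 and 45.0% ± 3.15 (SD, n = 3) and a 2-sided exact permutation p of 0.7. The difference of 1.86 percentage points became -0.505 without control heart 1. The log2 ratio of Ckmt2 to Ckm differed by 0.08 between the groups (exact permutation p = 0.7, adjusted 0.8), and without control heart 1 its sign changed, to -0.074. How reads that fit more than 1 creatine kinase gene were counted was not stated.

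**Figure D1:**
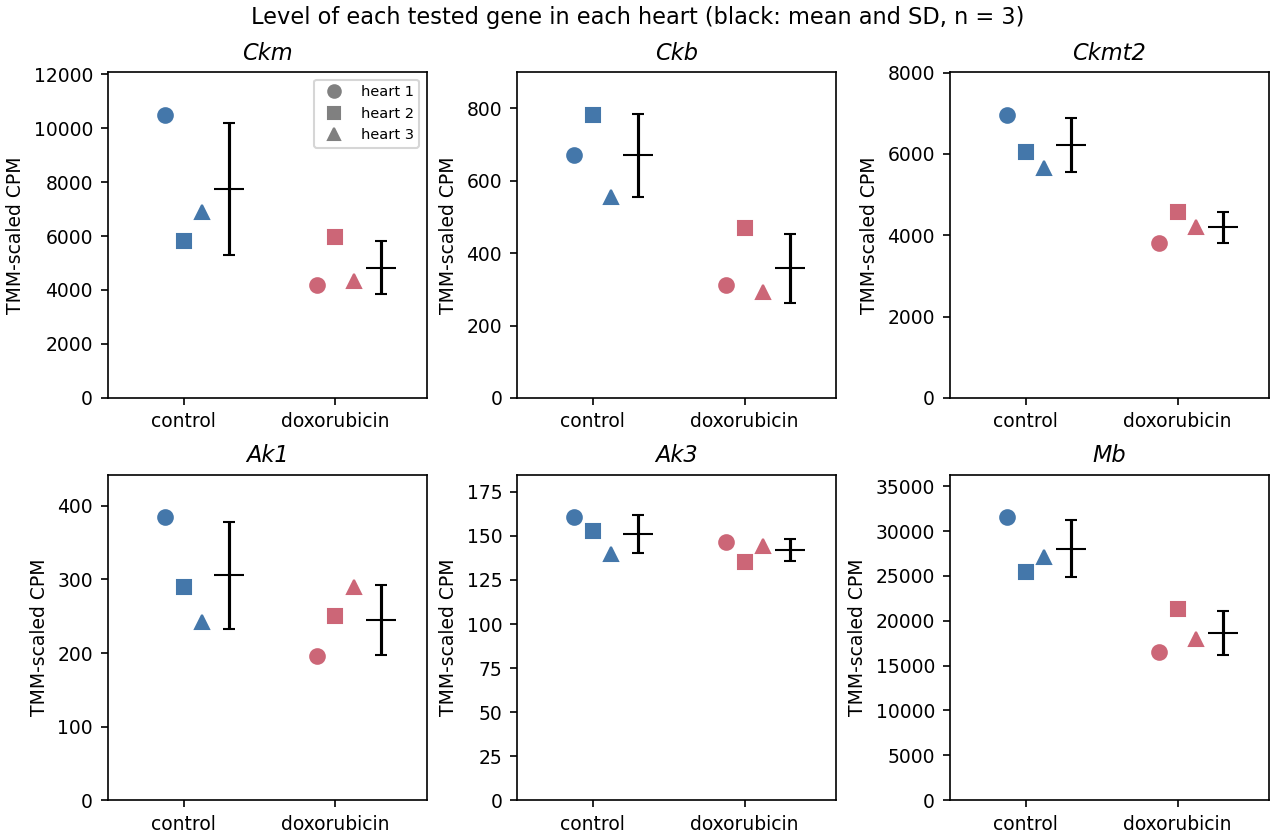
TMM-scaled CPM (y axis, from 0) of the 6 tested genes in each heart, by group (x axis). Symbols mark library number, and the black bar is the mean with its SD over 3 libraries. Ckb, Ckmt2 and Mb have every doxorubicin point below every control point, while Ckm, Ak1 and Ak3 overlap.

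Slc6a8 encodes the transporter that brings creatine into muscle cells, which do not make enough of their own. It was listed at 0 in all 6 libraries. Slc6a8 is on chromosome X in the RefSeq annotation, and of 492 protein-coding symbols of the table that matched to that chromosome, 490 were listed at 0 in every library. On the autosomes the share at 0 was 14.1% of 14492 symbols and from 8.42% to 19.2% by chromosome. The exceptions on chromosome X were Il13ra1, with 11 to 52 counts per library, and Rpl39, with 1 count in all. The 0 of Slc6a8 therefore stands with nearly a whole chromosome listed at 0 and gives no measure of the transporter's expression. The reason was not tested.

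Creatine itself is made by the enzymes of Gatm and Gamt, mainly in kidney and liver. Gamt, guanidinoacetate methyltransferase, stood at 283, 209 and 202 CPM in control hearts 1, 2 and 3 and at 197, 197 and 136 CPM in doxorubicin hearts 1, 2 and 3. Its groups did not overlap, the nearest values being 202 and 197 CPM. Its log2 fold change was -0.39 (SE 0.21), with an adjusted p of 0.666 in edgeR. Gatm, glycine amidinotransferase, had means of 27.5 ± 3.56 and 26.5 ± 4.82 CPM (SD, n = 3) and a log2 fold change of -0.05 (SE 0.24). Of the 4 genes listed for creatine synthesis and transport, 2 were tested and 0 passed. The other gene not tested, Slc16a12, a carrier of creatine, had 1 to 10 counts per library.

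Ak1 encodes the cytosolic adenylate kinase of muscle, red cells and brain. It stood at 385, 289 and 243 CPM in control hearts 1, 2 and 3 and at 195, 251 and 290 CPM in doxorubicin hearts 1, 2 and 3. The groups overlapped, and both doxorubicin hearts 2 and 3 lay above control heart 3. A log2 fold change of -0.32 (SE 0.21) was fitted, a level 80.4% of control with a 95% interval from 58.4% to 111%, and edgeR's adjusted p was 0.738. The highest value fell in control heart 1 and the lowest in doxorubicin heart 1, the libraries with the highest (0.658%) and lowest (0.0678%) share of hemoglobin reads. The highest and lowest values of Ckm, Ckmt2 and Mb fell in these same hearts. Without control heart 1 the log2 fold change was -0.11 (SE 0.19). The part of red-cell RNA in these values was not tested.

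Ak3 encodes the adenylate kinase of the mitochondrial matrix, which uses GTP. It varied least of the tested members: control hearts 1, 2 and 3 had 161, 153 and 140 CPM and doxorubicin hearts 1, 2 and 3 had 147, 135 and 144 CPM. The means were 151 ± 10.6 and 142 ± 6.09 CPM (SD, n = 3), coefficients of variation of 7.03% and 4.29%. The log2 fold change was -0.09 (SE 0.17), and the 95% interval of the level ran from 73.2% to 121% of control. Differences within that range in either direction cannot be told from none here, and the adjusted p was 0.917 in edgeR. Without control heart 1 the log2 fold change was -0.036 (SE 0.16). The log2 ratio of Ak1 to Ak3 was 1.26, 0.92 and 0.80 in control hearts 1, 2 and 3 and 0.41, 0.89 and 1.01 in doxorubicin hearts 1, 2 and 3. It differed by -0.22 between the groups, within their spread (exact permutation p = 0.5, adjusted 0.8 over 4 ratios).

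Mb had more counts than the other members in every library. It took 2.81%, 2.58% and 2.72% of all counts in control hearts 1, 2 and 3 and 1.68%, 2.19% and 1.88% in doxorubicin hearts 1, 2 and 3, and was always among the 4 symbols with most counts. On the CPM scale it stood at 31570, 25408 and 27117 in the control hearts and at 16558, 21318 and 18003 in the doxorubicin hearts, in the same order. The groups did not overlap, and the nearest values were control heart 2 and doxorubicin heart 2. The means were 28032 ± 3181 and 18626 ± 2441 CPM (SD, n = 3). Its fitted log2 fold change was -0.59 (SE 0.19), a level 66.4% of control with a 95% interval from 50.4% to 87.7%, and edgeR's adjusted p was 0.364. Without control heart 1 it was -0.49 (SE 0.14). The log2 ratio of Mb to Ckm differed by 0.06 between the groups (exact permutation p = 0.8, adjusted 0.8 over 4 ratios), and by -0.093 without control heart 1.

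**Figure D2:**
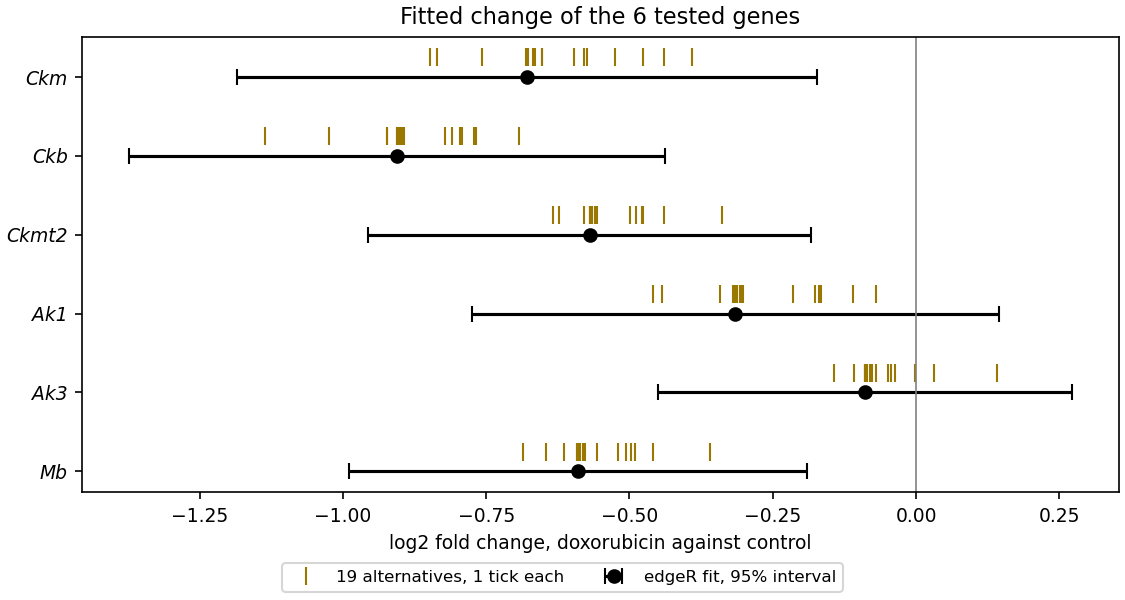
Log2 fold change, doxorubicin against control (x axis), of the 6 tested genes: black points are edgeR estimates with their 95% intervals, and each tick is 1 of 19 alternative settings. The intervals of Ckm, Ckb, Ckmt2 and Mb end below 0 before adjustment for the number of symbols tested, and those of Ak1 and Ak3 include 0.

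Together the 8 members took 4.47%, 3.90% and 4.08% of all counts in control hearts 1, 2 and 3 and 2.56%, 3.35% and 2.84% in doxorubicin hearts 1, 2 and 3. The doxorubicin shares were all below the control shares. Mb made up most of this total, and its part of it was nearly constant, 65.2% ± 2.09 in the control group and 65.6% ± 0.433 in the doxorubicin group (SD, n = 3). Within the doxorubicin group, library 2 had the highest values of Ckm, Ckb, Ckmt2 and Mb, while Ak1 was highest in library 3 and Ak3 in library 1. Over the 6 libraries, which include the group difference, Pearson's r of log2 CPM was 0.98 between Ckmt2 and Mb, 0.94 between Ckm and Mb and 0.92 between Ckmt2 and Ckb. Ak3 had r from 0.44 to 0.64 with the other 5 members. These values describe 6 libraries that share their scaling and their 2 groups.

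**Figure D3:**
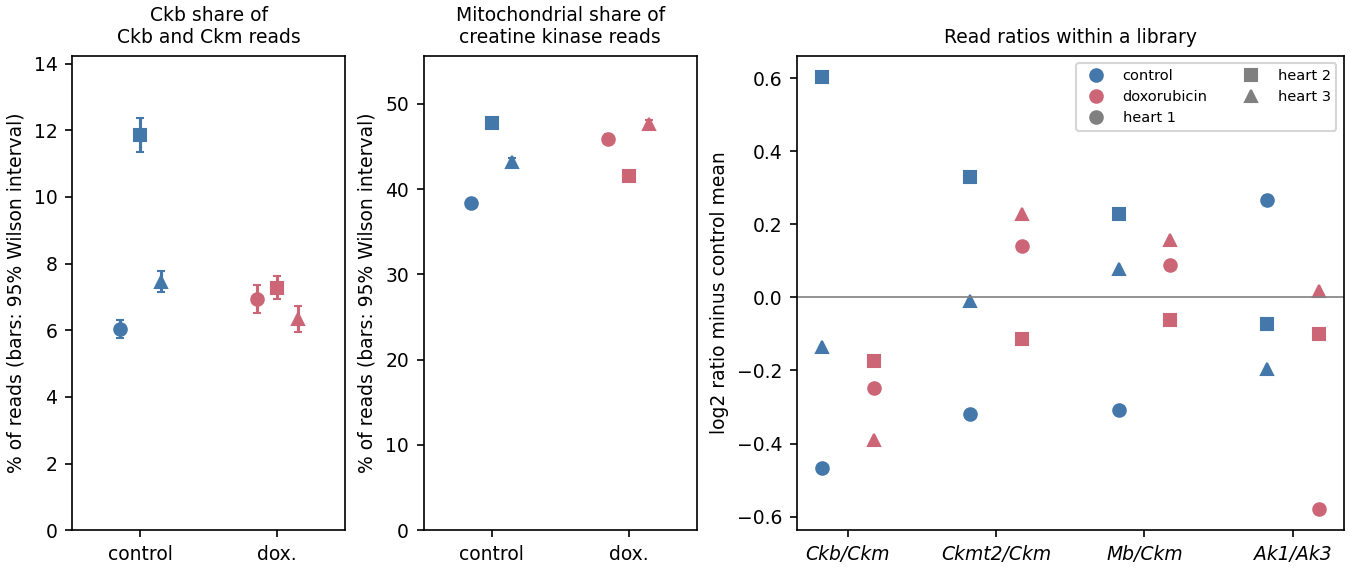
The left and middle panels show the share of reads (y axis, % from 0, with 95% Wilson intervals) of Ckb among Ckb and Ckm reads and of both mitochondrial genes among creatine kinase reads, and the right panel shows log2 read ratios relative to the control mean. Points are libraries, and in all 6 quantities the groups overlap; control heart 2 has the highest Ckb share, 11.9%.

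The transcripts most like Ckm, Ckb and Mb over the 6 libraries were sought among 5856 other genes with a mean of at least 20 CPM. Likeness was Pearson's r of log2 CPM over 6 libraries. For Ckm they were Dhrs11 (r = 0.99), a dehydrogenase gene, Evl (0.99), an actin regulator gene, and Mlycd (0.99), the gene of malonyl-CoA decarboxylase. For Ckb they were Mecr (0.99), a reductase gene of mitochondrial fatty acid synthesis, Pip4p1 (0.99), a phosphoinositide phosphatase gene, and Metap1d (0.98), a mitochondrial aminopeptidase gene. For Mb they were Slc25a34 (0.99), a mitochondrial carrier gene, Cyb5r3 (0.99), a reductase gene, and Smad3 (0.99), a TGF-beta signal transducer gene. Their log2 fold changes ran from -0.99 for Slc25a34 to -0.24 for Cyb5r3, and the negative sign follows from choosing genes by likeness over both groups. These values describe 6 libraries and carry no test.

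Other genes of adenine nucleotide handling were described from lists. For the counts given per list below, the share over all symbols with an unadjusted p under 0.05 was 8.10% in edgeR. Of 12 other nucleotide kinase genes tested, 0 passed the adjusted threshold, 1 had an unadjusted p under 0.05 in edgeR, and 6 were lower and 6 higher by sign, with a median log2 fold change of -0.05. That gene, Nme2, a nucleoside diphosphate kinase, had means of 758 ± 184 and 545 ± 85.6 CPM (SD, n = 3) and a log2 fold change of -0.48 (SE 0.21). Guk1, guanylate kinase, had a log2 fold change of -0.10 (SE 0.21). Ak4, another adenylate kinase of the mitochondrial matrix, had 20 to 66 counts in each heart and a log2 fold change of 0.01. Of 9 genes of AMP and adenosine metabolism, 0 passed, 0 had an unadjusted p under 0.05 in edgeR, and the median was -0.04. The log2 fold change of Aprt, which salvages adenine, was -0.41 (SE 0.22), and that of Adk, adenosine kinase, was 0.13 (SE 0.18).

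The AMP-activated kinase reads the AMP that adenylate kinase makes. All 11 genes listed for it were tested, 0 passed, 0 had an unadjusted p under 0.05 in edgeR, and the median log2 fold change was 0.07. The upstream kinase gene Stk11 had 0.03 (SE 0.19) and the regulatory subunit gene Prkab1 had 0.01 (SE 0.19). Among adenine nucleotide exchange and porin genes, 7 were tested, 0 passed, and 1 had an unadjusted p under 0.05 in edgeR, on the lower side. Slc25a4, the heart's main ADP/ATP carrier and the partner of Ckmt2, stood between 8617 and 9502 CPM in all 6 hearts, the log2 fold change being -0.03 (SE 0.17), with a 95% interval from -0.40 to 0.33. Vdac1, an outer membrane porin, had means of 1501 ± 67.2 and 1197 ± 76.1 CPM (SD, n = 3), did not overlap between groups, and had a log2 fold change of -0.33 (SE 0.17, adjusted p 0.664 in edgeR). Slc25a25, an ATP-magnesium carrier, had 24.7 ± 4.10 and 16.7 ± 1.24 CPM (SD, n = 3) and a log2 fold change of -0.57 (SE 0.25). The list median was -0.17.

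For globins other than myoglobin and for oxygen sensing, 10 genes were tested, 0 passed and 1 had an unadjusted p under 0.05 in edgeR. That gene was Fth1, ferritin heavy chain, which stores iron as myoglobin's heme uses it, with means of 3376 ± 941 and 2393 ± 432 CPM (SD, n = 3) and a log2 fold change of -0.50 (SE 0.22). Its highest value, 4463 CPM, was in control heart 1, the library with most hemoglobin reads. Cygb, cytoglobin, had a log2 fold change of 0.14, and Egln3, an oxygen-sensing prolyl hydroxylase, had 0.07 (SE 0.19). Of 16 genes for regulators of muscle energy genes, 0 passed and 1 had an unadjusted p under 0.05 in edgeR, Esrrg, an estrogen-related receptor. Esrrg had 18.5 ± 3.05 and 30.6 ± 15.7 CPM (SD, n = 3), with 23.1, 19.97 and 48.6 CPM in doxorubicin hearts 1, 2 and 3. The log2 fold change of Perm1, a muscle regulator of mitochondrial genes, was -0.26 (SE 0.22).

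**Figure D4:**
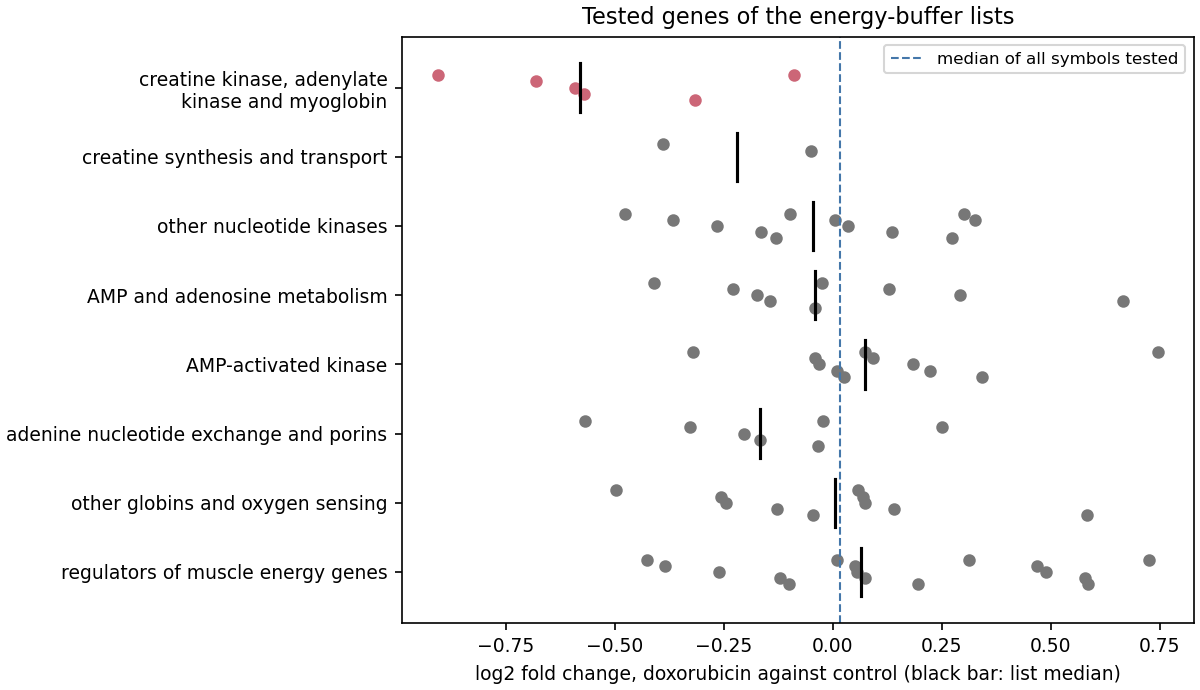
Log2 fold change, doxorubicin against control (x axis), of every tested gene of each list (rows); black bars are list medians and the dashed line is the median of all 9205 symbols tested, 0.02. The 6 tested creatine kinase, adenylate kinase and myoglobin genes have a median of -0.58, and the medians of the other lists lie between -0.22 and 0.07.

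In whole tissue, fewer cardiomyocytes and less RNA of a gene per cardiomyocyte cannot be told apart. The labelled tissue was checked with 12 cardiomyocyte markers, of which 12 were tested and 0 were at 0. Their summed level was 117702 to 134346 CPM in control and 99466 to 112055 CPM in doxorubicin hearts, so it too was lower in each doxorubicin heart. Myh6, the alpha myosin heavy chain, made up 53.6% of the difference in mean sum, and the sum of the other 11 overlapped, at 91323 to 115490 and 87355 to 97511 CPM. By sign 8 of the 12 were lower and 4 higher, with a median log2 fold change of -0.08, and 0 passed the adjusted threshold. An unadjusted p under 0.05 in edgeR was found for 3 of the 12, all lower. Over all symbols tested the shares were 8.10% in either direction and 4.11% lower. The 3 were Myh6 at -0.73 (SE 0.25), Tnni3k, a cardiac kinase gene, at -0.49 (SE 0.17), and Tnni3, a troponin gene, at -0.45 (SE 0.20). The highest log2 fold change was 0.46 (SE 0.22) for Csrp3, a Z-disc protein gene. When libraries were scaled to the sum of all 12, the median over all symbols moved from 0.02 to 0.24. On that scale the log2 fold changes were -0.69 for Ckb, -0.44 for Ckm, -0.36 for Mb, -0.34 for Ckmt2, -0.07 for Ak1 and 0.14 for Ak3. Such a scaling moves all symbols by nearly the same amount. A gene's place relative to the median over all symbols therefore does not test cardiomyocyte content. Scaled to the sum without Myh6, that median was 0.13, and the log2 fold changes were -0.79 for Ckb, -0.52 for Ckm, -0.46 for Mb, -0.44 for Ckmt2, -0.17 for Ak1 and 0.031 for Ak3.

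Markers of other cells that could bring creatine kinase or myoglobin RNA were given as sums. Of 12 skeletal muscle markers 11 had under 10 counts in every library, Tnnt3, Pvalb and Myf6 being at 0, and the sum was 64.0 to 87.1 CPM in control and 73.6 to 114 CPM in doxorubicin hearts. Casq1 made up most of this sum, at 61.3 to 82.1 CPM in control and 63.7 to 110 CPM in doxorubicin hearts. Smooth muscle and pericyte markers, from cells known to contain Ckb, summed to 1067 to 1321 and 1026 to 1358 CPM, with 0 of 10 at 0. Neuron and Schwann cell markers summed to at most 24.0 CPM, with 4 of 10 at 0, Snap25 and Syt1 among them. Macrophage markers summed to 264 to 276 CPM in control and 318 to 526 CPM in doxorubicin, with 0 of 10 at 0. This sum was higher in each doxorubicin heart. For 2 of the 10, Lyz2 and Mrc1, every doxorubicin value was above every control value, as for 588 of all 9205 symbols tested. By sign 9 were higher and 1, Adgre1, was lower. Lyz2 had the highest level, with means of 97.3 ± 16.3 and 172 ± 50.3 CPM (SD, n = 3). Endothelial markers summed to 1436 to 1609 and 1134 to 1583 CPM and fibroblast markers to 2834 to 3126 and 2388 to 3984 CPM, with 0 of 10 at 0 in each list. By sign 6 of the 10 endothelial markers were lower and 4 higher. For 2 of them every doxorubicin value was under every control value, Cldn5 at -1.15 (SE 0.27) and Tie1 at -0.48 (SE 0.20). Erythroid and platelet markers summed to 2058 to 7519 and 715 to 2754 CPM, with 1 of 11, Alas2, at 0. Atrial markers summed to 213 to 751 and 306 to 3307 CPM, with 0 of 6 at 0. Most of that sum was Nppa, the natriuretic peptide A gene, at 161 to 444 CPM in control and 277 to 3252 CPM in doxorubicin hearts. Without Nppa the other 5 summed to 307 CPM in control heart 1 and to 29.0 to 55.9 CPM in the other 5 hearts. For Stard10, on this list, every doxorubicin value was under every control value, which held for 7.06% of all symbols tested. Its log2 fold change was -1.01 (SE 0.27, edgeR's adjusted p 0.207). The part of macrophage, red-cell and atrial RNA in the members' differences was not tested.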

How the data were processed

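RNA was measured by sequencing of messenger RNA libraries from heart tissue of 3 control and 3 doxorubicin rats. Values are whole-number read counts per table row, deposited by the authors without normalization. The submitters' processing notes name FastQC, Trimmomatic, STAR, HTSeq and the build mRatBN7.2, without versions or settings; use of strand is not given in the sources used here. Rows were summed per symbol (18473 rows, 599 symbols on several rows); each member stood on 1 row. Totals per library were 2219685 to 3508282 counts.

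The test was edgeR 4.0.16 (R 4.3.3) quasi-likelihood with TMM, robust dispersion, a filter at a minimum count of 10 and minimum total of 15, and Benjamini-Hochberg adjustment over 9205 symbols. Standard errors were the absolute log2 fold change over the square root of F, and 95% intervals used the fit's degrees of freedom. Shares and ratios were compared by 2-sided exact permutation over libraries (scipy 1.17.1). Wilson intervals, at the 95% level, and floors cover counting error only. Replicates of a group differed by more than sampling noise (chi-square over its degrees of freedom at least 4.33). Alternatives used DESeq2 1.42.0, limma 3.58.1 and other scalings, filters and libraries; scripts were tested on simulated data. Each list gene was named for an unadjusted p under 0.05 with a mean CPM of at least 5, or for being among the 2 highest of its list; Ak4, Slc16a12, Cygb, all marker genes given with values, Il13ra1 and Rpl39 were named after their values were seen. Some list genes are not reported here by name, and the counts include them. Members and lists were chosen with earlier results of these data known. RefSeq gene names (GRCr8) served for chromosome names and upstream sequence only.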

Additional observations from a re-analysis of the deposited data

How the results depend on the processing

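Each of Ckm, Ckb, Ckmt2, Ak1 and Mb kept a negative log2 fold change in all 19 alternatives, and Ak3 in 17. The ranges were -0.85 to -0.39 for Ckm, -1.14 to -0.69 for Ckb, -0.63 to -0.34 for Ckmt2, -0.46 to -0.07 for Ak1, -0.14 to 0.14 for Ak3 and -0.69 to -0.36 for Mb. Ak3 became 0.14 with libraries scaled to the cardiomyocyte marker sum, and 0.031 with that sum taken without Myh6. The medians of all symbols on those scales were 0.24 and 0.13, since such a scaling moves all symbols by nearly the same amount. Those scalings and voom with sample quality weights were chosen after the data were seen. The count of members past the adjusted threshold was 0, and became 1 (Ckb) with no low-count filter and 1 (Ckb) with DESeq2, also run without that filter. Calls over all symbols rose too, from 5 of 9205 to 61 of 13050 (0.467%) and 74 of 10265 (0.721%); the cause was not tested. It was 0 in each fit that left out a library, where Ckb's adjusted p ranged from 0.0562 without doxorubicin heart 2 to 0.506. Of the pathway lists' genes, 0 passed in each setting run, and from 0 to 10 had an unadjusted p under 0.05. In the edgeR test as reported it was 4 of 67, against 8.10% of all symbols tested. Leaving out 1 library at a time moved the difference in the brain-type share from -2.81 to 0.106 percentage points and in the mitochondrial share from -0.505 to 4.19. It moved the log2 ratio differences from -0.50 to 0.030 for Ckb to Ckm, -0.074 to 0.25 for Ckmt2 to Ckm, -0.093 to 0.18 for Mb to Ckm and -0.34 to -0.04 for Ak1 to Ak3. Sign changes came without control heart 1 or 2. Same-numbered libraries are different animals and did not deviate together (correlations of 0.021, -0.19 and -0.056). Only doxorubicin library 1 correlated best with the library of its own number. With the replicate number as a block 0 members passed, 13 symbols passed against 5, Ckb had a log2 fold change of -0.92, and the ratios gave exact p from 0.5 to 0.75, with 0.25 the smallest possible. Depth limits Ckmt1, with at most 4 counts in a library.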
